A study of Mus musculus with 6 samples.

Results

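The genes described here are the nuclear genes of the respiratory chain in GC-2spd cells, a mouse spermatocyte-derived line of BALB/c background. They were chosen by symbol: every protein-coding gene of the GENCODE M21 annotation whose symbol begins with Nduf, Uqcr, Cox4 to Cox8 or Atp5, together with Sdha, Sdhb, Sdhc and Sdhd. This gave 94 of the 54886 genes listed, with 46 in complex I, 4 in complex II, 8 in complex III, 18 in complex IV and 18 in complex V. RNA was sequenced from cells kept for 48 h with 100 μg/mL of PM2.5 (3 libraries) and from cells in normal culture medium without particles (0 μg/mL, 3 libraries). The particles were a standard urban reference material suspended in phosphate-buffered saline, and per the study's methods the control medium also received the saline. All 6 libraries came from the same immortalized line, and whether the libraries of a group were separate cultures is not stated for the RNA-seq. The study's methods describe its quantitative data in general as coming from repeated experiments. The p-values thus measure only the spread between these libraries, which may be technical.

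The respiratory chain sits in the inner mitochondrial membrane. Complexes I and II take electrons from NADH and succinate, complex III passes them from ubiquinol to cytochrome c, complex IV reduces oxygen, and complex V (ATP synthase) uses the proton gradient built by complexes I, III and IV to make ATP. Most subunits are encoded in the nucleus, translated in the cytosol and imported, while the mitochondrial genome encodes the remainder of every complex except complex II. The study measured oxygen consumption of these cells, and the question addressed here is whether the transcripts of the chain differed between exposed and control cells.

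Expression is given as FPKM (fragments assigned to a gene per length of its exons and per depth of the library, as the authors scaled them), and fold changes, with their standard errors (SE), are on the log2(FPKM + 1) scale, which understates changes of weakly expressed genes. A gene was tested when its mean FPKM over the 6 libraries was at least 1, which held for 86 of the 94 genes and for 11884 genes in all. The 8 genes under this limit were Cox4i2, Cox6a2, Cox6b2, Cox7b2, Cox8b, Cox8c, Ndufa4l2 and a second identifier of Atp5o that was at 0 in every library. Recovered depth was between 16209352 and 18003201 reads per library. Control replicate 2 stood apart from the other libraries. Its Pearson's r with control replicates 1 and 3 across genes was 0.742 and 0.745, against 0.992 between those 2 libraries, and 14.5% of its reads were mitochondrial, against 1.65% to 1.95% elsewhere. Its summed FPKM over all genes tested was 575588, against 259826 to 280637 elsewhere. The depth implied by its FPKM was 0.800 times its recovered reads, against 1.03 to 1.05 times in the other libraries. Its FPKM is thus larger per read, and the FPKM departures of control replicate 2 given below carry this factor. Group comparisons and fold changes are therefore given with and without this library. PM2.5 replicate 3 also differed from PM2.5 replicates 1 and 2 (r of 0.950 and 0.958, against 0.991 between those). Of 12 spermatocyte markers such as Sycp1, Dmc1 and Ddx4, 0 passed the limit, 4 were at 0 everywhere, and the highest value was an FPKM of 2.56 for Sycp3 in control replicate 2. The summed FPKM of the 12 was 1.07 to 3.42 in control libraries and 0.407 to 1.01 in PM2.5 libraries, so the meiotic markers of the labelled cell type were at or near 0. Of 6 fibroblast or peritubular markers, 5 passed, with a summed FPKM of 924 to 1455 in control and 719 to 930 in PM2.5 libraries. Of 6 Sertoli markers 1 passed (Gata4; summed FPKM 17.3 to 19.2 in control and 12.1 to 23.6 in PM2.5 libraries), and of 5 Leydig markers 1 (Star; 2.01 to 2.59 and 1.74 to 1.89). Of 4 macrophage markers 1 passed (Cd68), with an FPKM of 15.5 in control replicate 2 against 0.750 to 1.80 elsewhere, and 2 of the 4 were at 0 everywhere. The part of these markers in the results below was not tested, and in bulk RNA fewer cells of a type and less RNA per cell cannot be told apart.

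The nuclear respiratory chain genes were strongly expressed. Their mean FPKM over the 6 libraries had a median of 57.5, against 9.88 for the 10374 protein-coding genes tested, and 79 of the 86 genes lay above the latter value. Of the 86 genes, 52 were among the 10% of protein-coding genes with the highest expression. These means include control replicate 2, in which the median FPKM of the 86 genes was 109.7, against 40.8 to 44.7 in the other libraries. The median of all genes tested was 7.70 in control replicate 2 and 7.90 to 8.39 in the other libraries. The highest mean was that of Cox6a1 (409.7), which encodes a small subunit of cytochrome c oxidase, and the lowest that of its neighbour in complex IV, the muscle isoform Cox7a1 (1.03). In control replicates 1 and 3, the median FPKM was 26.6 and 29.4 for complex I, 49.1 and 50.4 for complex II, 53.1 and 55.6 for complex III, 76.5 and 78.1 for complex IV, and 50.3 and 50.7 for complex V. The order of complexes I, III and IV was the same in every library. The order of complexes II and V changed between libraries.

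With all 6 libraries, 0 of the 86 genes had a Benjamini-Hochberg adjusted p under 0.05 in limma, at a background of 0.0926% of all genes tested (11 genes). An unadjusted p under 0.05 was found for 1 of the 86 (Ndufb2), and for 3.80% of all genes tested. The smallest adjusted p among the 86 was 0.875. Without control replicate 2, again 0 of the 86 genes were called, at a background of 0.993% (118 genes), and their smallest adjusted p was 0.0781. An unadjusted p under 0.05 was then found for 11 of the 86 genes (12.8%), against 15.9% of all genes tested. The shares with an unadjusted p under 0.05 in limma lay below their backgrounds. For the adjusted p, 0 of 86 genes cannot be told apart from backgrounds this small.

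The direction of the genes as a group depended on control replicate 2. With 6 libraries, 68 of the 86 genes were lower in the PM2.5 group and their median log2 fold change was -0.28, whereas the median of all genes tested was 0.02. Without control replicate 2, 42 genes were lower and 44 higher, with a median of 0.01, against -0.01 for all genes. The sign changed for 40 of the 86 genes, of which 33 turned from lower to higher and 7 from higher to lower. By complex, the median moved from -0.32 to 0.10 in complex I (45 genes), from 0.12 to -0.01 in complex II (4 genes), from -0.19 to 0.03 in complex III (8 genes), from -0.47 to -0.08 in complex IV (12 genes) and from -0.13 to -0.04 in complex V (17 genes). With each library scaled to the same summed FPKM of nuclear protein-coding genes, which moved the median of all genes to 0.16, the medians with 6 libraries were -0.14, 0.29, -0.021, -0.30 and 0.033 for complexes I to V, so that complex V changed sign. This scaling gave medians between -0.12 and 0.060 once control replicate 2 was left out, where complex III changed sign. Hence the spread between the medians of the complexes was wide with control replicate 2 and narrow without it. Within complex I, the 29 supernumerary subunits, which carry no redox centre, moved most, from a median of -0.49 to 0.21. The 7 core subunits of complex I, which carry the flavin and the iron-sulfur clusters, moved from -0.39 to -0.03, and its 8 assembly factors (Ndufaf1 to Ndufaf8) from -0.19 to 0.09.

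**Figure D1:**
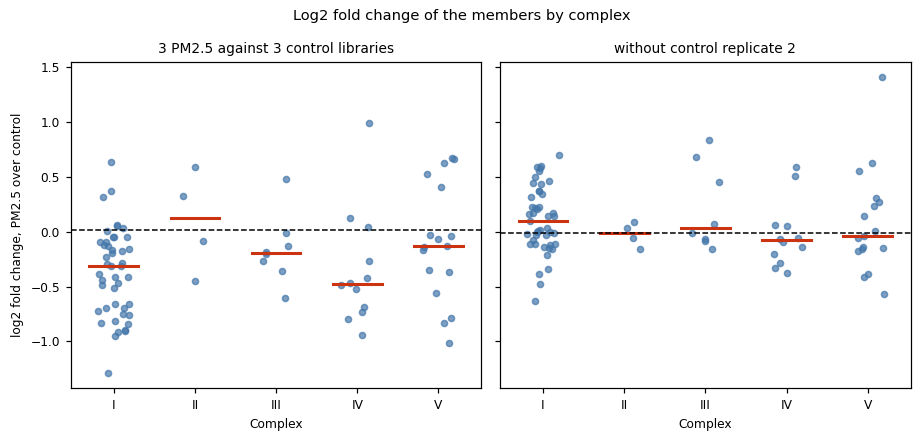
Log2 fold change of the 86 tested genes by complex, PM2.5 over control on the log2(FPKM + 1) scale, with all 6 libraries (left) and without control replicate 2 (right). Points are genes, red bars are medians per complex and the dashed line is the median of all genes tested. The medians lie between -0.47 and 0.12 on the left and between -0.08 and 0.10 on the right.

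The PM2.5 and control libraries did not overlap in 8 of the 86 genes (9.30%), while this held for 15.2% of all genes tested. Sdhd and Atp5f1 were above every control library, and Ndufaf3, Ndufb2, Ndufs7, Uqcrc1, Uqcrh and Atp5s were below. Without control replicate 2 the groups did not overlap in 24 of the 86 genes (27.9%), against 37.3% of all genes. Of the 24, 16 were higher and 8 lower after PM2.5 (backgrounds 17.7% and 19.6% of all genes tested).

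Control replicate 2 was more than 0.5 (log2) above the mean of control replicates 1 and 3 in 57 of the 86 genes and below it by as much in 13. Of all genes tested, 31.9% were above and 35.3% below the same limits. In single PM2.5 libraries these counts were 4 to 19 above and 2 to 9 below (all genes tested: 5.37% to 11.6% above and 6.76% to 8.68% below). Control replicate 2 held the highest value of the 6 libraries in 60 of the 86 genes (69.8%, against 39.3% of all genes tested) and the lowest in 15 (17.4%, against 43.9%). Its median departure from the mean of control replicates 1 and 3 was 1.07 on the log2 scale for the 86 genes and -0.07 for all genes. The median departure was 1.34 in complex I, -0.33 in complex II, 0.56 in complex III, 1.04 in complex IV and 0.04 in complex V. The summed FPKM of the 86 genes was 12984 in this library, against 5181 to 5598 elsewhere. In complex I, 25 of 29 supernumerary subunits, 5 of 7 core subunits and 5 of 8 assembly factors were more than 0.5 above the other controls in it. The largest excesses were spread over complexes I and V. The FPKM of Atp5k (subunit e of ATP synthase) was 22.05 times the mean of control replicates 1 and 3, that of Ndufa12 21.6 times, that of Ndufa5 15.6 times and that of Ndufa3 15.2 times. Other genes were low in it, from each of the 5 complexes as counted by symbol. In complex I, 0 of 29 supernumerary and 0 of 7 core subunits were more than 0.5 below the other controls. Only Ndufa4, whose protein is now assigned to complex IV, and 1 of 8 assembly factors were. Cox5a was 8.14 times lower than the mean of control replicates 1 and 3, Ndufa4 4.03 times, Atp5a1 (subunit α of ATP synthase) 4.02 times, Uqcrc2 3.44 times, Atp5b (the catalytic subunit β) 3.38 times and Sdha 3.28 times. Atp5a1, Ndufa12, Ndufa5 and Ndufa3 were named after their values were seen.

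**Figure D2:**
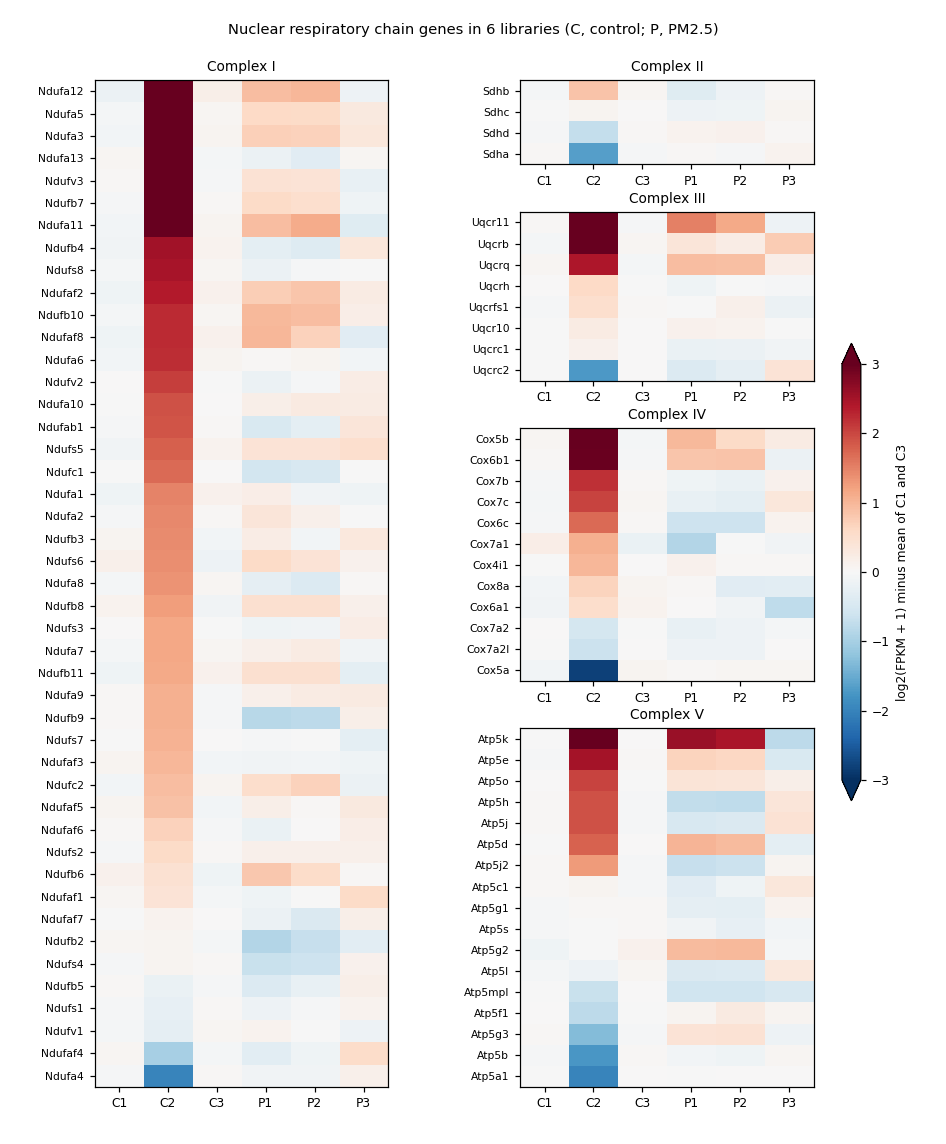
Departure of each library from the mean of control replicates 1 and 3 in log2(FPKM + 1), for the 86 tested genes grouped by complex and ordered by the departure of control replicate 2. Columns C1 to C3 are the control and P1 to P3 the PM2.5 libraries, and colours end at a departure of 3 in either direction. C2 is above the other controls in most rows of complex I and below them in Sdha, Uqcrc2, Cox5a, Atp5a1 and Atp5b.

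In complex I, Ndufb2 encodes a supernumerary subunit of the membrane arm. Its FPKM was 5.42, 5.59 and 4.96 in control replicates 1, 2 and 3 and 2.36, 2.84 and 3.95 in PM2.5 replicates 1, 2 and 3. All PM2.5 libraries were below all control libraries, control replicate 2 included. Its log2 fold change was -0.66 (SE 0.20, limma adjusted p = 0.875), and -0.63 without control replicate 2 (adjusted p = 0.225 from limma). Exons of Ndufb2 overlap other genes on both strands, and the library kit as described does not mark strand, so that reads of the overlap cannot be assigned with certainty. Ndufb10, another membrane arm subunit, had the largest increase of complex I without control replicate 2. Its FPKM was 27.8, 140.2 and 30.2 in the control and 57.4, 56.2 and 33.6 in the PM2.5 libraries. PM2.5 replicates 1 and 2 were well above control replicates 1 and 3, PM2.5 replicate 3 only just, and control replicate 2 exceeded all of them. Accordingly the log2 fold change was -0.05 (SE 0.66, limma adjusted p = 0.981) with all libraries and 0.70 (SE 0.26, limma adjusted p = 0.303) without control replicate 2.

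Ndufa13, also known as GRIM-19, had the lowest fold change of all 86 genes with 6 libraries. Its FPKM was 40.1, 423 and 37.2 in the control and 34.3, 30.4 and 40.1 in the PM2.5 libraries. Control replicate 2 alone was high, and the PM2.5 libraries lay around the other controls. This gave a log2 fold change of -1.29 (SE 0.95, limma adjusted p = 0.875), and -0.15 (SE 0.14) without that library. Other genes share 33.2% of its 31-base words, so that its reads are uncertain. Of the 86 genes, 33 share over 10% of these words with other genes and 30 overlap an exon of another gene. Not all of them are marked in the text. The core subunit with the highest expression was Ndufs8, an iron-sulfur protein. Its FPKM was 82.9, 480.0 and 89.9 in the control and 76.3, 83.9 and 86.2 in the PM2.5 libraries, and its log2 fold change was -0.89 and, without control replicate 2, -0.07. Ndufa2 had the highest expression among supernumerary subunits of complex I, with 127, 355 and 132 in the control and 166, 145 and 128 in the PM2.5 libraries (log2 fold change -0.32, and 0.17 without control replicate 2). The assembly factor Ndufaf1 had an FPKM of 18.8, 24.3 and 17.2 in the control and 16.4, 17.8 and 27.3 in the PM2.5 libraries, with PM2.5 replicate 3 the highest of the 6 (log2 fold change 0.0071, and 0.15 without control replicate 2). Ndufa4, counted here by its symbol although its protein is now assigned to complex IV, had an FPKM of 109.7, 27.8 and 114 in the control and 104, 103 and 125 in the PM2.5 libraries. Control replicate 2 alone was low in this gene, and the log2 fold change moved from 0.64 to -0.02 without it.

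Complex II is succinate dehydrogenase, shared by the respiratory chain and the citrate cycle, and all of its subunits are nuclear. The FPKM of Sdha, the flavoprotein, was 46.4, 13.8 and 44.1 in the control and 46.7, 43.9 and 48.9 in the PM2.5 libraries. That of Sdhb, the iron-sulfur subunit, was 51.9, 99.0 and 56.8 and 41.7, 48.7 and 55.9. Control replicate 2 was thus the lowest of the 6 libraries in Sdha and the highest in Sdhb. Sdhc, a membrane anchor, had 37.6, 40.2 and 38.7 in the control and 34.5, 35.0 and 40.6 in the PM2.5 libraries, and its groups overlapped. Sdhd, the other anchor, had 100.0, 61.2 and 103 in the control and 109, 111 and 104 in the PM2.5 libraries, and PM2.5 was higher in every library, by little in replicate 3. The log2 fold changes were 0.59, -0.45, -0.08 and 0.33 for Sdha to Sdhd with 6 libraries. Without control replicate 2 they were 0.04, -0.16, -0.06 and 0.09, with standard errors between 0.09 and 0.15, so that each lay within about 1 standard error of 0.

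In complex III, Uqcrfs1 (the Rieske iron-sulfur protein) had an FPKM of 110.4, 161 and 115 in the control and 112, 125 and 99.7 in the PM2.5 libraries, and the groups overlapped (log2 fold change -0.18, and -0.01 without control replicate 2). The core protein Uqcrc1 had 55.9, 61.7 and 56.4 in the control and 48.9, 49.7 and 52.0 in the PM2.5 libraries, all of them below the controls, with a log2 fold change of -0.20 (SE 0.18, limma adjusted p = 0.875), and -0.16 (SE 0.09) without control replicate 2. Its partner Uqcrc2 had 48.3, 14.2 and 49.4 in the control and 36.6, 40.3 and 65.6 in the PM2.5 libraries. For Uqcrc2 control replicate 2 was lowest and PM2.5 replicate 3 highest, and the log2 fold change moved from 0.49 to -0.09 without control replicate 2. Uqcr10, a small subunit, varied little, with 169, 200.1 and 169.7 in the control and 185, 182 and 168 in the PM2.5 libraries (log2 fold change -0.01, and 0.07 without control replicate 2). Uqcrb, the ubiquinone-binding protein of this complex, had 50.3, 479.5 and 54.8 in the control and 67.7, 61.8 and 89.4 in the PM2.5 libraries. All PM2.5 libraries were above control replicates 1 and 3 and far below control replicate 2. Its log2 fold change was -0.61 with 6 libraries and 0.45 (SE 0.18, limma adjusted p = 0.326) without control replicate 2, and other genes share 34.8% of its 31-base words.

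Uqcr11, a small subunit of complex III, differed several-fold between the PM2.5 libraries. Its FPKM was 32.9, 388 and 30.97 in the control and 92.5, 71.8 and 28.7 in the PM2.5 libraries. PM2.5 replicates 1 and 2 were above control replicates 1 and 3, PM2.5 replicate 3 was below them, and control replicate 2 was the highest by far. The log2 fold change was -0.35 (SE 1.06, limma adjusted p = 0.925) with 6 libraries and 0.83 (SE 0.51, limma adjusted p = 0.480) without control replicate 2. Its promoter is shown as an example. It held motifs of both ETS factors and NRF1, known regulators of respiratory chain genes, as did those of Atp5k, Cox6a1 and others. The stretch lies on the minus strand at chr10:80406832-80406921 of GRCm38.p6, from 100 to 11 bases before the start of the gene. Capitals mark the ETS motif CCGGAAG, and the NRF1 motif is not in this stretch.
Uqcr11: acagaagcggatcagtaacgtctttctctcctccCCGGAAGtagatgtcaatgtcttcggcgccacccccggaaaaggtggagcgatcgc

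In complex IV, Cox4i1, the common isoform of the largest nuclear subunit, had an FPKM of 126, 254 and 127 in the control and 138, 129.9 and 129 in the PM2.5 libraries. The log2 fold change of Cox4i1 was -0.27 (SE 0.34) with 6 libraries and 0.07 (SE 0.09) without control replicate 2. Cox5a and Cox5b showed opposite behaviour in control replicate 2. Cox5a had 40.5, 5.28 and 45.5 in the control and 43.8, 44.9 and 45.01 in the PM2.5 libraries, and Cox5b, the zinc-binding subunit, had 20.6, 212 and 19.0 and 39.6, 29.8 and 23.7. The PM2.5 libraries of Cox5a lay beside control replicates 1 and 3 (log2 fold change 0.99, and 0.05 without control replicate 2). Those of Cox5b were all above control replicates 1 and 3, with a log2 fold change of -0.53 with 6 libraries and 0.59 (SE 0.22, limma adjusted p = 0.305) without control replicate 2. Cox6c had the largest decrease of complex IV with 6 libraries, with 63.3, 213 and 65.8 in the control and 41.6, 41.7 and 69.9 in the PM2.5 libraries. PM2.5 replicates 1 and 2 were below all controls and PM2.5 replicate 3 was not. Its log2 fold change was -0.94, and -0.38 (SE 0.26) without control replicate 2.

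Cox6a1, with the highest mean FPKM of the 86 genes, had an FPKM of 383, 596 and 443 in the control and 413, 381 and 242 in the PM2.5 libraries. PM2.5 replicate 3 was the lowest library, and PM2.5 replicates 1 and 2 lay within or just below the range of the controls. Its log2 fold change was -0.47 (SE 0.34, limma adjusted p = 0.875), and -0.29 without control replicate 2. Other genes share 18.5% of its 31-base words. Its promoter carries the palindrome CGCATGCG of the NRF1 motif, which is in capitals 161 to 154 bases before the start, in the following stretch on the minus strand at chr5:115348989-115349133 of GRCm38.p6.
Cox6a1: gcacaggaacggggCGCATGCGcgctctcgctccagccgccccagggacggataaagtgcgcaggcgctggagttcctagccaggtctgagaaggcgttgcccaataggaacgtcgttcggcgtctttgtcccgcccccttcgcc

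Several subunits of complex IV exist as a common and a tissue-restricted isoform, and GC-2spd cells expressed the common one of each pair. Cox4i2 had at most 2 reads in a library, Cox6b2 (known from testis) at most 3, Cox7b2 at most 1, Cox6a2 at most 19 and Cox7a1 at most 20. Cox8b and Cox8c were at 0 reads in all 6 libraries, which allows up to 3 reads in a library, counting error only. The common partners Cox4i1, Cox6a1, Cox6b1, Cox7a2, Cox7b and Cox8a had an FPKM of at least 56.3 in every library. Cox6b1 had 64.6, 503 and 62.0 in the control and 113, 116 and 56.3 in the PM2.5 libraries, Cox7a2 had 168, 115 and 167 and 144, 152 and 160.3, Cox7b had 69.2, 323 and 71.6 and 64.5, 61.1 and 76.8, and Cox8a had 325, 541 and 363 and 353, 270.3 and 277. Only in Cox7a2, of these 4 genes, were the 3 PM2.5 libraries all on one side of control replicates 1 and 3, below them by little. The log2 fold changes of Cox6b1, Cox7a2, Cox7b and Cox8a were -0.48, 0.04, -0.79 and -0.42 with 6 libraries and 0.51, -0.14, -0.07 and -0.20 without control replicate 2. Ndufa4l2, a paralogue of Ndufa4, likewise had at most 6 reads in a library, against an FPKM of at least 27.8 for Ndufa4. No switch between isoforms was detectable at this depth.

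In complex V, Atp5b, the catalytic subunit β, had an FPKM of 324, 97.8 and 338 in the control and 313, 301 and 345 in the PM2.5 libraries. Control replicate 2 was the only low library, and the log2 fold change moved from 0.53 to -0.05 (SE 0.11) without it. Atp5k, subunit e, had 9.10, 203 and 9.36 in the control and 60.2, 54.5 and 4.94 in the PM2.5 libraries. PM2.5 replicates 1 and 2 were above and PM2.5 replicate 3 below control replicates 1 and 3, and the range within each group exceeded the difference between the groups. The log2 fold change was -0.03 (SE 1.48, limma adjusted p = 0.994) with 6 libraries and 1.41 (SE 1.10, limma adjusted p = 0.574) without control replicate 2. Atp5h, subunit d of the peripheral stalk, went the other way, with 125, 458 and 119 in the control and 72.2, 71.4 and 156 in the PM2.5 libraries. PM2.5 replicates 1 and 2 were below all controls, whereas PM2.5 replicate 3 was above control replicates 1 and 3. Its log2 fold change was -1.02, and -0.38 (SE 0.38) without control replicate 2, and other genes share 25.4% of its 31-base words. Atp5j2, subunit f, had 93.9, 224 and 90.7 in the control and 57.2, 59.1 and 97.5 in the PM2.5 libraries, with the same 2 PM2.5 libraries low (log2 fold change -0.84, and -0.41 without control replicate 2).

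Atp5mpl, which encodes the small 6.8 kDa proteolipid of ATP synthase, had the smallest p of the 86 genes without control replicate 2. Its FPKM was 50.3, 31.7 and 50.7 in the control and 33.0, 32.9 and 35.7 in the PM2.5 libraries. All PM2.5 libraries were close together and below control replicates 1 and 3, while control replicate 2 was lower still. The log2 fold change was -0.56 (SE 0.09, limma adjusted p = 0.0781) without control replicate 2 and -0.34 (SE 0.25, limma adjusted p = 0.875) with it. Atp5mpl shares 0% of its 31-base words with other genes and overlaps no other exon.

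The membrane ring of ATP synthase is built from 1 mature protein, subunit c, which Atp5g1, Atp5g2 and Atp5g3 each encode. Atp5g1 had an FPKM of 22.4, 23.5 and 23.4 in the control and 18.8, 18.5 and 24.8 in the PM2.5 libraries, Atp5g2 had 30.9, 33.3 and 36.9 and 66.2, 67.2 and 32.6, and Atp5g3 had 85.0, 32.9 and 81.1 and 111, 113 and 75.2. Of their summed FPKM, Atp5g2 held 22.3%, 37.1% and 26.1% in control replicates 1, 2 and 3 and 33.8%, 33.9% and 24.6% in PM2.5 replicates 1, 2 and 3. The share of Atp5g1 was 16.2%, 26.2% and 16.5% in the control and 9.58%, 9.29% and 18.7% in the PM2.5 libraries. PM2.5 replicates 1 and 2 therefore had more Atp5g2 and less Atp5g1 than control replicates 1 and 3, and PM2.5 replicate 3 did not. The log2 fold change of Atp5g2 was 0.63 (SE 0.33, limma adjusted p = 0.875) with 6 libraries and 0.62 (SE 0.35) without control replicate 2, and other genes share 40.2% of its 31-base words. That of Atp5g3 was 0.67, and 0.24 without control replicate 2, and that of Atp5g1 was -0.16 and -0.15.

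**Figure D3:**
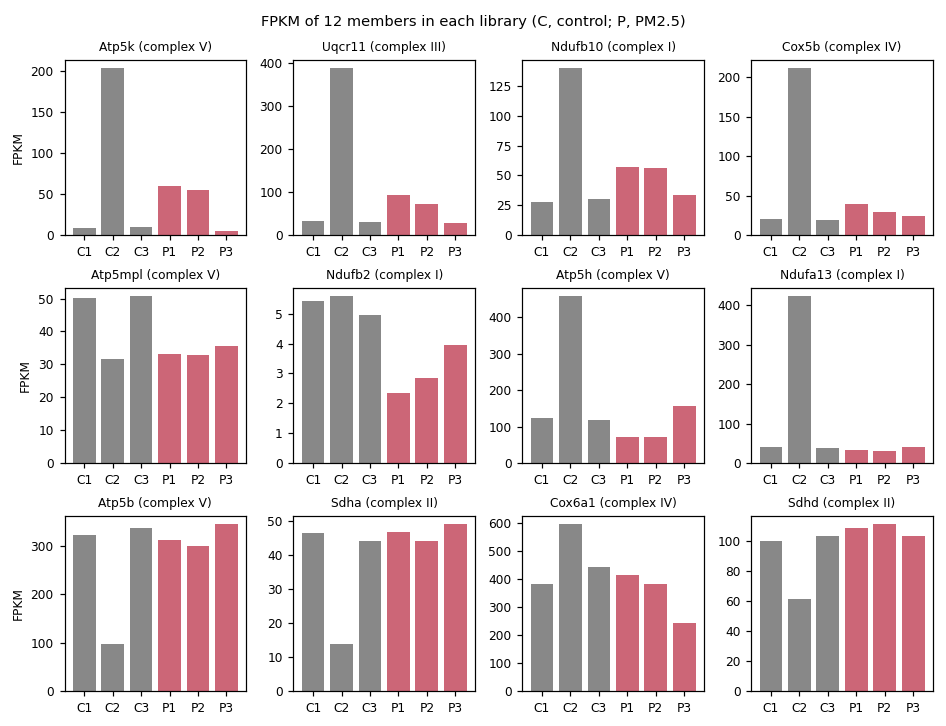
FPKM of 12 of the genes in each library, with bars for control replicates 1 to 3 (C1 to C3, grey) and PM2.5 replicates 1 to 3 (P1 to P3, red), each panel on its own axis from 0. C2 is far above the other libraries in Atp5k, Uqcr11, Ndufb10, Cox5b, Atp5h and Ndufa13 and below them in Atp5b, Sdha and Sdhd, and only Ndufb2 and Sdhd of the 12 separate all 3 PM2.5 from all 3 control libraries.

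The difference among the PM2.5 libraries was not limited to the genes above. A departure of more than 0.5 (log2) above control replicates 1 and 3 was found in both PM2.5 replicates 1 and 2 for 18 of the 86 genes (20.9%, against 8.25% of all genes tested), and PM2.5 replicate 3 passed this limit in 0 of the 18. Over all genes tested, 980 met the same condition, and PM2.5 replicate 3 passed the limit in 199 of the 980. Among the 18 were Atp5k, Uqcr11, Uqcrq, Ndufb10, Ndufa12, Cox5b, Cox6b1, Atp5d and Atp5g2, of which Ndufa12, Uqcrq and Atp5d were named after their values were seen. Control replicate 2 was above the same limit in 16 of the 18, and in 616 of the 980. A departure of more than 0.5 below control replicates 1 and 3 in both was found for 7 genes (8.14%, against 5.06% of all genes), namely Ndufb2, Ndufb9, Ndufs4, Cox6c, Atp5h, Atp5j2 and Atp5mpl, again with 0 in PM2.5 replicate 3 (219 of 601 over all genes tested). PM2.5 replicate 3 itself passed the limit in 6 genes (6.98%, below the 12.7% of all genes tested), upwards in Uqcrb, Ndufs5, Ndufaf1 and Ndufaf4 and downwards in Atp5k and Cox6a1. Ndufb9, Ndufs4, Ndufs5 and Ndufaf4 were likewise named after their values were seen.

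These departures moved with the GC content of the transcripts. Across the 11735 tested genes with a known GC content, Spearman's rho between GC content and the departure from control replicates 1 and 3 was 0.547 in PM2.5 replicate 1, 0.488 in PM2.5 replicate 2, -0.378 in PM2.5 replicate 3 and 0.338 in control replicate 2. Across the 86 genes it was 0.279, 0.278, -0.497 and 0.249 in the same order. With exon length, rho across the 86 genes was -0.349, -0.296, 0.253 and -0.333. These are descriptions across genes of single libraries, which share the same 2 reference libraries and are not independent replicates. After a correction of each library for GC content and length, which was added once the values were known, and without control replicate 2, 3 of the 86 genes had an adjusted p under 0.05 in limma at a background of 6.36% of the genes. Uqcrb was higher, with a log2 fold change of 0.54 (SE 0.08, limma adjusted p = 0.0282). Cox6a1 and Atp5mpl were lower, with -0.54 (SE 0.09, limma adjusted p = 0.0300) and -0.67 (SE 0.10, limma adjusted p = 0.0287). The call of Cox6a1 rests on the correction. Before it, the departures of Cox6a1 from control replicates 1 and 3 were 0.0064, -0.11 and -0.76 in PM2.5 replicates 1, 2 and 3. Its log2 fold change without control replicate 2 was then -0.29 (SE 0.26). The correction with all 6 libraries called 0 of the 86 genes and left 65 of them lower, at a median of -0.23. Hence the correction did not take away the dependence on control replicate 2.

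**Figure D4:**
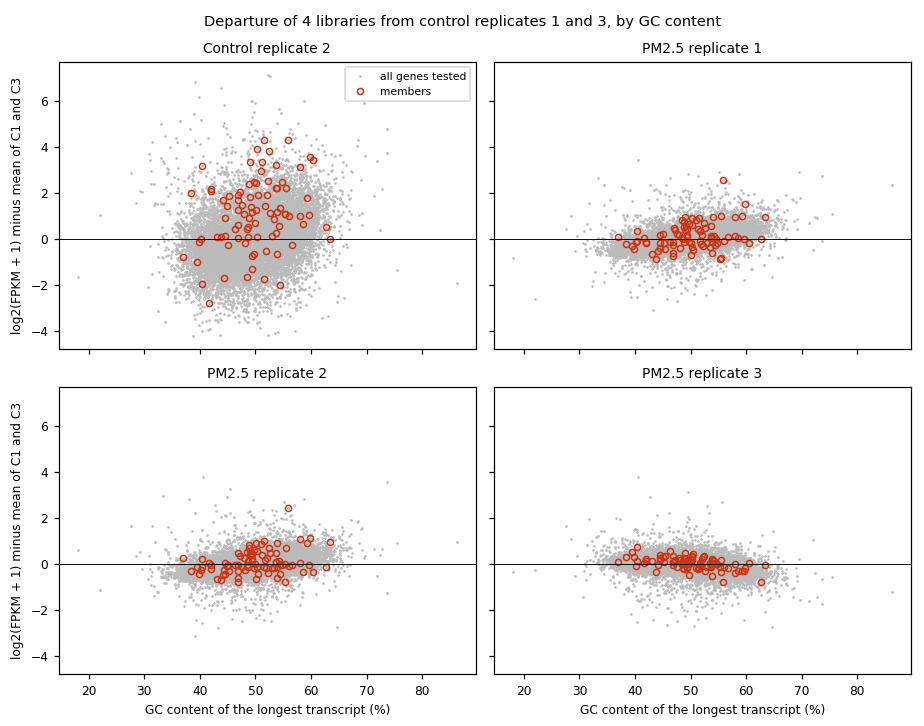
Departure of control replicate 2 and of the 3 PM2.5 libraries from the mean of control replicates 1 and 3 in log2(FPKM + 1), against the GC content of the longest transcript in percent. Grey points are all genes tested and red circles the 86 nuclear respiratory chain genes. The cloud of all genes rises with GC content in control replicate 2 and PM2.5 replicates 1 and 2 (rho 0.338, 0.547 and 0.488) and falls in PM2.5 replicate 3 (rho -0.378).

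Motifs of factors known for respiratory chain genes were looked up in RefSeq promoters (GRCm38.p6, from 250 bases before to 50 bases after the start), of which 74 matched a symbol of the 93, and both strands were searched. The NRF1 palindrome CGCATGCG was found in 11 of the 74 promoters (14.9%), among them those of Atp5k, Cox6a1, Uqcr11 and Uqcrc1, against 2.07% of all promoters and 4.73% of those of tested genes. The ETS motif CCGGAAG was found in 18 (24.3%, against 9.93% of all promoters and 22.04% of those of tested genes). The YY1 motif AAGATGGC occurred in 10 promoters (13.5%, against 3.19% and 5.82%). The core TNGCGTG of the xenobiotic response element, to which the aryl hydrocarbon receptor binds, occurred in 10 (13.5%, against 5.84% and 9.85%), among them Sdha, Sdhb, Ndufa3 and Ndufa4. None of the 4 motifs contains another, although their ends may overlap, and a match is a description of the letters only.

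The remaining genes of the chain give the context. Of a list of 49 nuclear genes whose symbols the rule does not match, mostly electron carriers and assembly factors, 39 were tested. The list also holds Cyc1, a subunit of complex III, and Atpif1, an inhibitor of ATP synthase, and no gene matched the symbol Coa1. With 6 libraries and without control replicate 2, 0 of the 39 were called (smallest adjusted p 0.875 and 0.123, from limma). After the correction for GC content and length, without control replicate 2, 1 was called higher (limma adjusted p = 0.0156), at a background of 6.36% of the genes. The median log2 fold change of the 39 genes was 0.04 with 6 libraries and 0.10 without control replicate 2. In the latter comparison 29 of the 39 were higher, against 5703 of the 11884 genes tested. The groups then did not overlap in 13 of the 39 (33.3%, against 37.3% of all genes), 12 higher and 1 lower. With 6 libraries the largest increases were those of Taco1 (1.07), a translational activator of mitochondrial Cox1, and the complex I assembly factor Acad9 (0.54). Without control replicate 2 these values were 0.32 and 0.10. The largest decreases with 6 libraries were those of Etfb (-1.12), a subunit of the electron transfer flavoprotein, and the complex III assembly factor Uqcc2 (-1.05). Both changed sign without control replicate 2, to 0.34 and 0.08. Without control replicate 2 the largest increases were those of Higd2a (0.81) and Pet100 (0.74), both known from complex IV assembly. The largest decreases were then those of Sdhaf2 (-0.21), which attaches flavin to Sdha, and Tmem70 (-0.12), an assembly factor of complex V. With 6 libraries the values of Higd2a, Pet100, Sdhaf2 and Tmem70 were 0.36, -0.82, -0.46 and -0.04. The 13 mitochondrially encoded subunits had a summed FPKM of 144405 in control replicate 2, against 11904 to 14156 elsewhere. Their median log2 fold change was -1.18 with 6 libraries and 0.01 without control replicate 2, again with 0 called.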

How the data were processed

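RNA-seq of 6 libraries of GC-2spd cells (3 control, 3 PM2.5) was analysed. Each sample's labels gave its group and its replicate number. The authors mapped the reads with HISAT2 (2.0.5), counted them with featureCounts (1.5.0-p3), called differential expression with DESeq2 and deposited FPKM. The submitters' processing notes name genome build mm9, whereas the gene identifiers and lengths of the files fit GENCODE M21 (GRCm38), so no coordinates of the files were used. FPKM multiplied by exon length gave whole reads (within 0.02) for 98.0% to 98.1% of the values under 50 reads, which gave the depth per library. The deposited scaling between libraries was kept.

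Tests used limma 3.58.1 in R 4.3.3, with its trend and robust settings, on log2(FPKM + 1) with a pseudocount of 1, for genes whose mean FPKM reached 1, and Benjamini-Hochberg adjusted p-values over all genes tested. Genes were called at an adjusted p under 0.05. This step was tested on simulated data with equal, independent noise in every library. The simulation held no outlying library, so it does not cover the spread that control replicate 2 adds here. The files used here hold FPKM, so limma stands in place of a count test. Shared sequence was measured as the share of 31-base sequences of a gene found in other genes. The complex of a gene was taken from its symbol. Promoters came from RefSeq (GRCm38.p6), and figures were drawn with matplotlib 3.10.9.

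The genes and lists were chosen with earlier results of these data known. Genes named in the text were those called, those with the highest expression or the largest change in their complex, the 4 Sdh genes and the isoform pairs. For the carriers and assembly factors, the 2 largest changes each way were named. Further genes were picked from their values, which the text says. Alternatives were other pseudocounts, filters and scalings, quantile normalization, voom in limma on the recovered reads, a replicate block and leaving out each library. Corrections for GC content and length, and the nuclear scaling without control replicate 2, were chosen after seeing the data. Intervals and floors of 3 reads cover counting error only.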

Additional observations from a re-analysis of the deposited data

How the results depend on the processing

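The number of genes called over all genes (11) ranged from 0 to 118 when each library was left out in turn, with 118 without control replicate 2. It was 0 with the replicate block (335 genes at an unadjusted p under 0.05 in limma), without a filter (875), with a mean FPKM of at least 5 (254) and with voom (403), 1 with the nuclear scaling (378), 20 with the correction for GC content and length (757), 746 with that correction and 108 with the nuclear scaling, both with control replicate 2 left out. The number of nuclear respiratory chain genes called was 0 under every alternative except the correction with control replicate 2 left out, which gave 3. The number of these genes lower after PM2.5 (68) ranged from 42 to 70 over single libraries left out, and was 42 with the correction and without control replicate 2. The nuclear scaling (equal summed FPKM of nuclear protein-coding genes in each library) moved the median of all genes to 0.16 and that of the 86 genes to -0.11, with 51 of them lower. The median of complex II (0.12) was 0.29 with the nuclear scaling, 0.21 with quantile normalization and 0.26 with voom. It was -0.018 with the correction and -0.049 with the nuclear scaling, both without control replicate 2, and ranged from -0.010 to 0.19 over single libraries left out. Same-numbered libraries deviated together with correlations of -0.285, 0.180 and 0.253 for numbers 1, 2 and 3. Unlike numbers reached 0.276 (control replicate 2 with PM2.5 replicate 1) and 0.292 (control replicate 1 with PM2.5 replicate 3). Because control replicate 2 stood apart from the other controls, these values cannot show whether the numbers pair the libraries. The replicate block gave 0 of the 86 genes.

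The alternatives were run for the 35 tested genes that the naming rule gave, and the genes among them whose direction reversed were as follows. With each library left out in turn, the log2 fold changes ranged from -0.21 to 0.15 for Ndufaf1, -0.57 to 0.17 for Ndufa2, -0.021 to 0.98 for Ndufa4, -0.45 to 0.70 for Ndufb10, -0.048 to 0.072 for Uqcr10, -0.086 to 0.78 for Uqcrc2, -1.16 to 0.45 for Uqcrb, -0.97 to 0.83 for Uqcr11, -1.11 to 0.59 for Cox5b, -0.053 to 0.84 for Atp5b, -0.76 to 1.41 for Atp5k, -0.44 to 0.065 for Cox4i1, -0.99 to 0.51 for Cox6b1 and -0.14 to 0.13 for Cox7a2. The direction turned without control replicate 2 in 13 of these 14 genes, without PM2.5 replicate 3 in 5 (Atp5k, Ndufaf1, Ndufb10, Uqcr10 and Uqcr11), and in Ndufaf1 also without control replicate 1 or 3. Over all 86 genes the direction turned in 40 without control replicate 2, among them, of the genes picked from their values, Ndufa12 (-0.84 to 0.59), Ndufa5 (-0.81 to 0.50), Ndufa3 (-0.69 to 0.58), Ndufs5 (-0.16 to 0.44), Uqcrq (-0.13 to 0.68) and Atp5d (-0.034 to 0.56). The correction without control replicate 2 gave 0.073 for Ndufa2, 0.59 for Ndufb10, -0.032 for Uqcrc2, 0.54 for Uqcrb, 0.63 for Uqcr11, 0.55 for Cox5b, -0.086 for Atp5b, 1.26 for Atp5k, 0.43 for Cox6b1, -0.23 for Cox7a2 and 0.0049 for Cox7b. With all libraries it gave 0.047 for Ndufb10, 0.11 for Uqcr10 and 0.11 for Atp5k. The nuclear scaling gave 0.13 for Ndufb10, 0.17 for Uqcr10, 0.15 for Atp5k, 0.086 for Sdhc and 0.00081 for Atp5g1, quantile normalization 0.16 for Ndufb10, 0.023 for Uqcrfs1, 0.18 for Uqcr10 and 0.26 for Atp5k, and voom 0.094 for Ndufb10, 0.13 for Uqcr10, 0.11 for Atp5k and 0.050 for Sdhc. The cause of these changes was not tested.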
